A study of Mus musculus with 8 samples.

Results

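The genes described here are the albumin family of the mouse liver and the best known regulators of its fetal member: albumin (Alb), alpha-fetoprotein (Afp), afamin (Afm) and vitamin D binding protein (Gc), with the zinc finger proteins Zhx2 and Zbtb20. The members were set by gene family and function, with no threshold on measured values, and 5 of the 6 were measured, out of 19937 genes on the arrays. Gc was not analysed here. Total RNA was profiled on 8 Affymetrix Mouse Gene 1.0 ST arrays, 1 array per sample. The 4 samples called c-MYC liver tumour came from mice with a human c-MYC transgene that is switched by doxycycline and expressed in the liver through the CEBPB-LAP promoter, and were collected at the humane endpoint. The 4 Control Liver samples were described as normal livers of matched mice. The labels give no strain, age or sex, do not say whether the control mice carried any part of the transgene or received doxycycline, and do not say whether each tumour came from a mouse of its own.

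Albumin family proteins are made by hepatocytes and secreted into plasma, where they carry fatty acids, hormones, vitamins and other small ligands. In the mouse, Afp is transcribed strongly in the yolk sac and fetal liver and is shut down in the weeks after birth, while Alb stays on through adult life. Afp is used as a serum marker of liver cancer in human patients. Zhx2, a zinc finger and homeobox protein found through mouse strains whose adults keep Afp in the blood, and Zbtb20, a BTB zinc finger protein, are both known to repress Afp in mouse liver after birth.

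Alb, Afp and Afm stand side by side on mouse chromosome 5 and are read in the same direction. The 250 bases before the start of each are shown because these neighbours share a promoter element and yet moved apart in the tumours. The sequences are from RefSeq, build GRCm38.p6, plus strand, 5′ to 3′, and capitals mark GTTAAT or its reverse complement ATTAAC, the half-site bound by hepatocyte nuclear factors of the HNF1 family. The Alb stretch is chr5:90460620-90460869, the Afp stretch chr5:90490464-90490713 and the Afm stretch chr5:90518699-90518948.
Alb: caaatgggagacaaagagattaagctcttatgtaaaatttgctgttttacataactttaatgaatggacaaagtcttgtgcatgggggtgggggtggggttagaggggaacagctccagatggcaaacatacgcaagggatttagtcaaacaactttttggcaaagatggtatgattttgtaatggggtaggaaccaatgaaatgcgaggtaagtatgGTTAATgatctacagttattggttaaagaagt
Afp: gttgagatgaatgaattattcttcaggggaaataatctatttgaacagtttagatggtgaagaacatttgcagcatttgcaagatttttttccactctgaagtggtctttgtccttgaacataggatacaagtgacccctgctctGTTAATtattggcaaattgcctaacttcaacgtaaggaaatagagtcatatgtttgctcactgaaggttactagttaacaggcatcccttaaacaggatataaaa
Afm: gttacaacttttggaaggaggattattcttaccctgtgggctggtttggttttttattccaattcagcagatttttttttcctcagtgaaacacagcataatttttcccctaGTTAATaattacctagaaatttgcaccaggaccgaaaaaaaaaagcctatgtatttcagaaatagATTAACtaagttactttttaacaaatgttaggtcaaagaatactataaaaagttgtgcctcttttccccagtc

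Searched on both strands, GTTAAT began 32 bases before the Alb start, 105 bases before the Afp start and 138 bases before the Afm start, and Afm held a further match that began 73 bases before its start. Of 32851 mouse promoters of the same length, 6.43% held at least 1 match. In all 3 genes the first match extended to GTTAATNAT, a longer form chosen after the sequences had been read, which 0.737% of promoters held. CAAGGNCA, the kind of site bound by the nuclear receptor Nr5a2, matched the Afp promoter on the minus strand from 141 to 134 bases before the start and neither of the others, against 5.53% of promoters. The CCAAT box, CCAAT, was matched in all 3, with its Afp match overlapping the longer form, and 33.8% of promoters held it. The TATA box, TATAAA, was matched from 7 to 2 bases before the Afp start and from 30 to 25 bases before the Afm start. The Alb window held no exact match, and 12.4% of promoters held it. All distances here are from the annotated starts, and whether transcription begins exactly there was not tested. CACGTG, the E-box bound by MYC with MAX, had no match in these 3 windows, and 6.02% of promoters held it. A match says only that the letters are there.

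Across genes, arrays of the same group correlated at 0.979 to 0.989 among tumours and 0.970 to 0.982 among controls, against 0.865 to 0.897 between the groups. In sex-linked genes 1 array stood apart within its group. In control liver 3 Xist, the RNA that silences an X chromosome in females, read 11.89 on the log2 scale, against 4.86 to 7.12 on the other 7 arrays, and 3 Y-linked genes read 3.46 to 5.39, against 7.62 to 9.37 elsewhere. These are the readings of a female sample in control liver 3 and of male samples elsewhere, though the labels give no sex. By them the groups were not matched in sex. Values without control liver 3 are given beside the results below that it moved most.

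All 5 measured members differed between the groups, 1 higher and 4 lower in tumours at an adjusted p under 0.05 in limma. Over all genes 28.9% passed, 16.2% higher and 12.7% lower. No member's groups overlapped, which was also true of 30.2% of all genes. Afp rose at least 2-fold, as did 5.54% of all genes, and Afm and Zbtb20 fell at least 2-fold, as did 4.68%. Alb and Zhx2 fell by less. In bulk tissue a change in the number of cells of a type and a change in RNA per cell cannot be told apart. This applies to each fall and each rise described here.

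**Figure D1:**
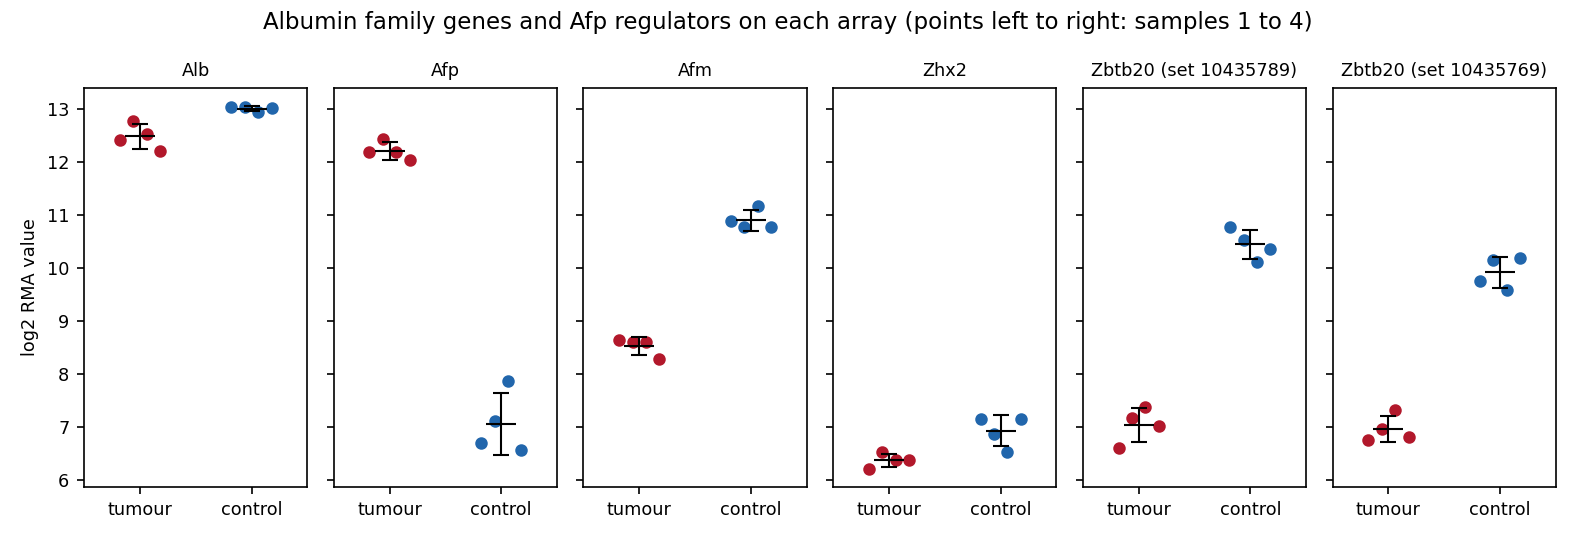
Log2 RMA values of the 5 measured genes on each of the 8 arrays, with both probe sets of Zbtb20. Points are arrays, tumours in red on the left and controls in blue on the right of each panel, and bars mark each group's mean and SD (n = 4). Afp is high in all 4 tumours and low in all 4 controls, Afm and Zbtb20 show the opposite, and the Alb and Zhx2 groups lie close together without overlapping.

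Afp, the fetal plasma protein, was measured by 1 probe set, 10523078. It read 12.18, 12.43, 12.19 and 12.03 in tumours 1 to 4, against 6.69, 7.12, 7.87 and 6.57 in controls 1 to 4. The tumours lay within a narrow band and the controls spread more widely, with control liver 3 the highest of them. The means were 12.21 ± 0.17 in tumours and 7.06 ± 0.59 in controls (SD, n = 4 each). The log2 change was 5.14 (SE 0.25, 95% interval 4.60 to 5.69), a 35.4-fold rise with an adjusted p of 2.1e-07 in limma. It ranked 5 of the 8784 genes with a positive change. Between the lowest tumour and the highest control lay 4.16 on the log2 scale, and without control liver 3 the change was 5.41 (SE 0.15). The control mean was above that of 65.3% of genes. In tumours Afp lay on average 1.24 below the highest value of the array. Whether so bright a probe set understates the rise or narrows the tumour spread was not tested.

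Alb, the main carrier protein of adult plasma, read 12.42, 12.77, 12.53 and 12.21 in tumours 1 to 4, against 13.03, 13.03, 12.94 and 13.01 in controls 1 to 4 (probe set 10523062). The controls were nearly identical, and each tumour lay below each control. Means were 12.48 ± 0.23 in tumours and 13.00 ± 0.04 in controls (SD, n = 4 each), a log2 change of -0.52 (SE 0.12, 95% interval -0.79 to -0.25; adjusted p = 0.00752 in limma). This is 1.44-fold, and 22.7% of all genes had a change at least as large in size. The lowest control and the highest tumour were 0.17 apart. Alb lay near the top of the scale, on average 0.97 below the highest value of the array in tumours and 0.52 below it in controls. Whether so bright a probe set understates a difference was not tested.

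Afm, which carries vitamin E and hydrophobic signalling proteins, fell by more than Alb. Its probe set 10523095 read 8.63, 8.60, 8.61 and 8.28 in tumours 1 to 4, against 10.89, 10.76, 11.17 and 10.76 in controls 1 to 4. Tumours 1 to 3 were nearly equal, tumour 4 was lower, and the groups were 2.13 apart. Means were 8.53 ± 0.17 in tumours and 10.90 ± 0.19 in controls (SD, n = 4 each), and the log2 change was -2.36 (SE 0.13, 95% interval -2.64 to -2.09; adjusted p = 3.7e-07 in limma), which is 5.15-fold.

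The family members therefore changed by different amounts. Within each array the log2 value of one gene was subtracted from that of another, and the difference was compared between groups by a two-sided exact permutation test over all 70 splits of the arrays. The change of Afp exceeded that of Alb by 5.67 and that of Afm by 7.51, and the change of Alb exceeded that of Afm by 1.84. Each difference had an exact permutation p of 0.0286, the smallest this design allows, and 0.0286 after adjustment over the 4 pairs that could be tested. The gaps between the groups of the single genes already fixed these p-values, so they add no separate support. Tumours differed little from each other in these differences, with an SD of 0.08 in tumours and 0.62 in controls for Afp against Alb.

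Zbtb20 was measured by 2 probe sets, and both fell. The brighter, 10435789, read 6.61, 7.16, 7.37 and 7.01 in tumours 1 to 4, against 10.77, 10.53, 10.12 and 10.36 in controls 1 to 4. The other, 10435769, read 6.76, 6.96, 7.32 and 6.81 in tumours 1 to 4, against 9.75, 10.15, 9.58 and 10.18 in controls 1 to 4. On both, tumour 3 was the highest tumour, tumour 1 the lowest tumour and control liver 3 the lowest control, and the groups were 2.75 and 2.27 apart. The brighter set had means of 7.04 ± 0.32 in tumours and 10.44 ± 0.27 in controls (SD, n = 4 each) and a log2 change of -3.40 (SE 0.18, 95% interval -3.80 to -3.00; adjusted p = 3.7e-07 in limma), a 10.6-fold fall. The other gave -2.95 (SE 0.18; adjusted p = 6.6e-06 in limma among all 34760 probe sets, of which 22.4% passed). The brighter set ranked 152 of the 11153 genes with a negative change.

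Zhx2 fell by a much smaller amount. Its probe set 10424213 read 6.21, 6.52, 6.38 and 6.38 in tumours 1 to 4, against 7.15, 6.87, 6.53 and 7.15 in controls 1 to 4. The groups only just failed to overlap, since tumour 2 and control liver 3 were 0.0117 apart. Means were 6.37 ± 0.13 in tumours and 6.93 ± 0.29 in controls (SD, n = 4 each), and the log2 change was -0.55 (SE 0.15, 95% interval -0.88 to -0.23; adjusted p = 0.0150 in limma), or 1.47-fold. It was -0.69 without control liver 3 (SE 0.12, adjusted p = 0.00204 in limma). The change of Zhx2 was 2.85 smaller in size than that of Zbtb20 (two-sided exact permutation p = 0.0286, the smallest possible, and 0.0286 adjusted over the 4 pairs). This p too was fixed by the wide gap between the groups of Zbtb20 and adds no separate support. The control mean of Zhx2 was above that of 62.1% of genes, and that of Zbtb20 above that of 97.4%. Whether the dimmer reading of Zhx2 understates its change was not tested. Among relatives of both factors, Zhx3 fell (log2 change -0.88, SE 0.18, adjusted p = 0.00417 in limma), while Zhx1, Homez and Zbtb45 did not pass. Thus 1 of 4 was lower and none higher, against 12.7% lower and 16.2% higher over all genes.

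Control liver 3 had the highest Afp, the highest Afm, the lowest Zhx2 and the lowest Zbtb20 of the controls on both probe sets. This was the array with high Xist and low Y-linked genes. With 1 such array, its sex-linked readings and these values cannot be told apart from any other property of that sample, and no correlation was computed over 4 controls.

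The genes around the family showed no common direction. In the RefSeq gene order the family and the genes between its ends, with 3 genes on each side, made 14 protein coding genes, of which 13 were measured. Among the 10 that are not members, 2 were higher, 4 lower and 4 did not pass. Over all genes the shares were 16.2% higher and 12.7% lower. Albfm1, a further gene of the albumin superfamily next to Afm, read 6.26, 5.89, 6.38 and 6.34 in tumours 1 to 4, against 9.0, 9.37, 9.03 and 9.34 in controls 1 to 4. Its log2 change was -2.97 (SE 0.14, adjusted p = 1.7e-07 in limma), so the genes directly beyond Afp on this side both fell. On the other side, Ankrd17, which encodes an ankyrin repeat protein and stands next to Alb, rose by 0.84 (SE 0.11).

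Farther out, Dck, the deoxycytidine kinase, had a log2 change of 1.20 (SE 0.14), whereas Slc4a4, a sodium bicarbonate cotransporter, changed by -1.87 (SE 0.33). Mob1b and Adamts3, named after their values were seen, were lower by log2 changes of -1.11 and -0.39. The Adamts3 call was lost when its probe sets were averaged (-0.14, adjusted p = 0.303 in limma). Cox18 (-0.18), Npffr2 (-0.04), Rassf6 (0.39) and Cxcl5 (0.16) did not pass, and Rassf6 passed without control liver 3 (adjusted p = 0.0223 in limma).

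**Figure D2:**
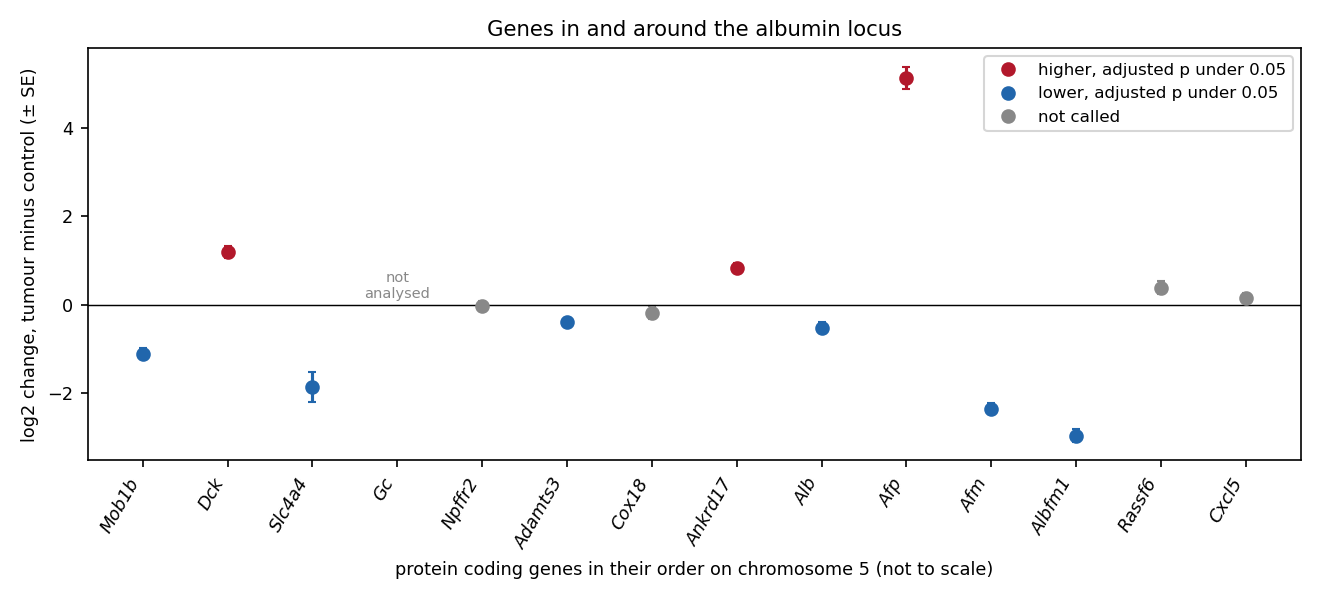
Log2 change (tumour minus control, ± SE from limma, n = 4 each) of the protein coding genes in and around the albumin locus, drawn in their order on chromosome 5 and not to scale. Red and blue points passed as higher and lower, grey points did not pass. Afp, at 5.14, stands between Alb at -0.52 and Afm at -2.36, with Albfm1 at -2.97 beyond them.

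Factors that bind the promoters or enhancers of Alb and Afp were lower in 13 of 22 measured cases and higher in 2. Over all genes 12.7% were lower and 16.2% higher. The median log2 change of these factors was -0.46, against -0.04 over all genes. Without control liver 3, 11 were lower and 1 higher. The largest falls were in the nuclear factor I genes Nfib and Nfix and in Cebpa, a bZIP factor of the adult hepatocyte. Nfib read 8.49, 8.92, 8.78 and 8.36 in tumours 1 to 4, against 9.73, 10.00, 10.20 and 10.10 in controls 1 to 4. Every tumour was lower than every control (log2 change -1.37, SE 0.15, adjusted p = 5.3e-05 in limma). Nfix changed by -1.22 (SE 0.23) and Cebpa by -0.88 (SE 0.16). The 2 higher genes were Nfyb and Nfyc, subunits of the CCAAT-binding factor NF-Y, by 0.51 (SE 0.17, adjusted p = 0.0477 in limma) and 0.32 (SE 0.11, adjusted p = 0.0490 in limma). Their groups overlapped, and the calls were lost in 7 and 9 of 15 alternatives, among them quantile normalisation (both) and leaving out single arrays.

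Genes reported to respond to Zhx2 in mouse liver moved in both directions, 2 of 7 measured higher and 3 lower. Over all genes 16.2% were higher and 12.7% lower. The median of the list was -0.47. Without control liver 3 the median was -2.16, since the middle value is that of Cyp4a12a, which this array moved. The list was not split by the direction reported for each gene. Its counts and median therefore do not show whether reported directions were followed. Lpl, the lipoprotein lipase, showed a log2 change of 1.88 (SE 0.36). Its tumour values were 8.12, 9.38, 10.01 and 8.40, against 7.29, 6.75, 7.05 and 7.30 in controls, so the tumours were all higher than the controls but spread more widely. Gpc3, a cell surface proteoglycan that like Afp is shut down after birth, rose by 0.54 (SE 0.15, adjusted p = 0.0169 in limma), and did not pass without tumour 2 (adjusted p = 0.0502 in limma) or tumour 3 (0.0536). The major urinary protein genes Mup3 and Mup21 changed by -6.72 (SE 0.38) and -6.46 (SE 0.89), and the fatty acid elongase gene Elovl3 by -4.49 (SE 0.83). Mup genes are near copies of each other, so a probe set may read several of them. Leaving out control liver 3 gave -7.59 (SE 0.24) for Mup21, -5.51 (SE 0.33) for Elovl3 and -6.93 for Mup3. Without control liver 2 the change of Elovl3 was -3.89.

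Control liver 3 was the lowest control for each of these falling genes. Elovl3 read 4.75, 4.76, 4.98 and 4.71 in tumours 1 to 4, against 9.33, 11.10, 6.25 and 10.49 in controls 1 to 4. Without control liver 3 the list had 5 lower members, because Cyp4a12a and Cyp4a12b, cytochrome P450 genes that are male-biased in mouse liver and are named here after their values were seen, then passed. Cyp4a12a read 9.38, 9.70, 9.55 and 8.81 in tumours 1 to 4, against 11.19, 11.83, 4.76 and 11.55 in controls 1 to 4. Its change was -0.47 over all arrays and -2.16 without control liver 3.

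Members of a list of other plasma carrier proteins, which also holds the fibrinogen chains Fga, Fgb and Fgg, fell with Alb. Of 18 measured, 17 were lower and none higher, against 12.7% lower over all genes, and the median was -0.68. The acute phase proteins Orm1, which binds drugs, and Hp, which binds free haemoglobin, changed by -5.51 (SE 0.28) and -4.13 (SE 0.46), and Fetub, a protease inhibitor, by -3.66 (SE 0.38). Ttr, which carries thyroid hormone and was named after its values were seen, had the smallest change of the 18, at -0.33 (SE 0.09, adjusted p = 0.0146 in limma). The change of Alb lay toward this small end. Ambp, named because it was the 1 gene of the list that did not pass, changed by -0.52 (adjusted p = 0.0692 in limma).

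**Figure D3:**
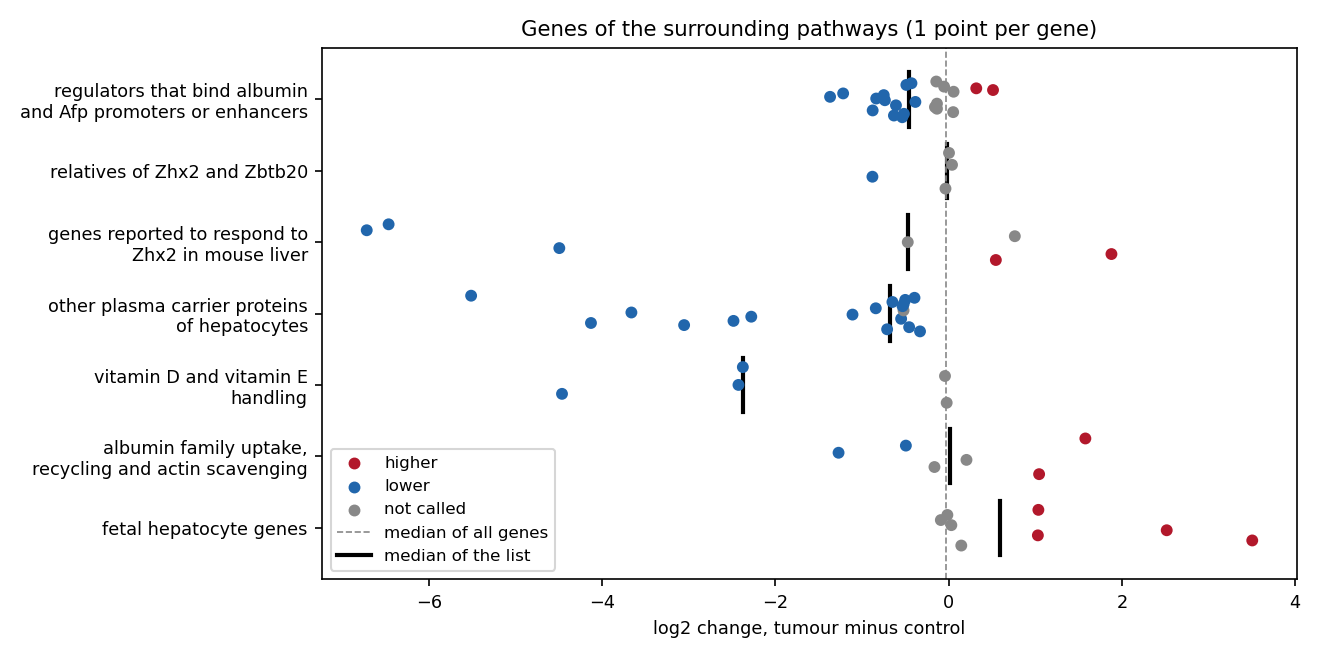
Log2 change (tumour minus control) of each measured gene in 7 lists around the albumin family, 1 point per gene, with each list's median as a black bar and the median of all genes, -0.04, as a dashed line. Members of the plasma carrier protein list, fibrinogen chains included, lie at or below -0.33, and fetal hepatocyte genes that moved lie on the right, up to 3.50.

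Genes that make or handle the ligands of the family were lower where they passed. Of 5 measured genes of vitamin D and vitamin E handling, 3 were lower and none higher, against 12.7% and 16.2% of all genes. Their median was -2.38. Cyp2r1, the main vitamin D 25-hydroxylase of liver, read 3.81, 3.91, 4.18 and 3.95 in tumours 1 to 4, against 9.03, 8.44, 8.29 and 7.93 in controls 1 to 4. Its log2 change was -4.46 (SE 0.20, adjusted p = 1.4e-07 in limma). The deposited values give no background for each probe set, so whether changes of genes that read low in one group are understated was not tested, here as for Mup21 and Elovl3 in tumours. Cyp27a1, a sterol hydroxylase that also acts on vitamin D, changed by -2.43 (SE 0.31), and Ttpa, which loads vitamin E onto lipoproteins, by -2.38 (SE 0.26). The other 2, Vdr and Cyp27b1, read below 6.01 on every array, the mean that bounds the dimmest 33.3% of genes.

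Receptors and partners of the family's proteins were split, with 2 of 6 measured higher and 2 lower, against 16.2% and 12.7% of all genes. Gsn, the actin-severing protein that clears actin from plasma together with vitamin D binding protein, rose by 1.58 (SE 0.26), and Lrp2, the endocytic receptor megalin, by 1.04 (SE 0.13). Gsn read 9.01, 9.11, 9.02 and 7.84 in tumours 1 to 4, against 6.85, 7.40, 7.20 and 7.22 in controls 1 to 4, with tumour 4 the lowest tumour and yet above every control. Dab2, an adaptor of megalin uptake, changed by -1.27 (SE 0.19), or by -0.70 (SE 0.13) when its probe sets were averaged, and B2m, a subunit of the receptor that recycles albumin, by -0.49 (SE 0.09).

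Among 8 other fetal hepatocyte genes, 4 were higher and none lower, against 16.2% and 12.7% of all genes. Their median was 0.59. The growth factor gene Igf2 read 10.19, 10.10, 9.66 and 9.23 in tumours 1 to 4, against 6.35, 6.85, 6.14 and 5.82 in controls 1 to 4, and its log2 change was 3.50 (SE 0.25, adjusted p = 2.9e-06 in limma). Igf2bp3, an RNA-binding protein, rose by 2.52 (SE 0.16) and Sall4, a zinc finger factor of embryonic cells, by 1.03 (SE 0.12). Afp changed by more than any of them in these arrays. Of the 4 that did not pass, named after their values were seen, Hmga2 had the lowest change (-0.09) and Dlk1 the highest (0.14).

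The genes nearest to Afp in their values over the 8 arrays were sought among 17515 genes, leaving out predicted genes and olfactory and vomeronasal receptors. Each gene's values were taken relative to its own control mean, and likeness was the root mean square difference on the log2 scale. The nearest were Sfmbt2, a Polycomb group protein, at 0.31, Psat1, of serine synthesis, at 0.41, Spink1, a trypsin inhibitor, at 0.42, Tmed6, of the p24 trafficking family, at 0.48, and Bub1, a mitotic checkpoint kinase, at 0.53, against a median of 3.68. Their log2 changes lay between 4.68 and 5.18. All of them read low in controls, with control means from 4.45 (Spink1) to 5.93 (Psat1), against 7.06 for Afp. Being near by this measure mostly means a group change of like size. For Afm the nearest were Slc10a5, St3gal4, Enpep, Elovl5 and Adh7, at 0.15 to 0.19, and for Zbtb20 they were Aldh1l1, Cyp2j9, Ptprd, Mbl1 and Chpt1, at 0.22 to 0.30.

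**Figure D4:**
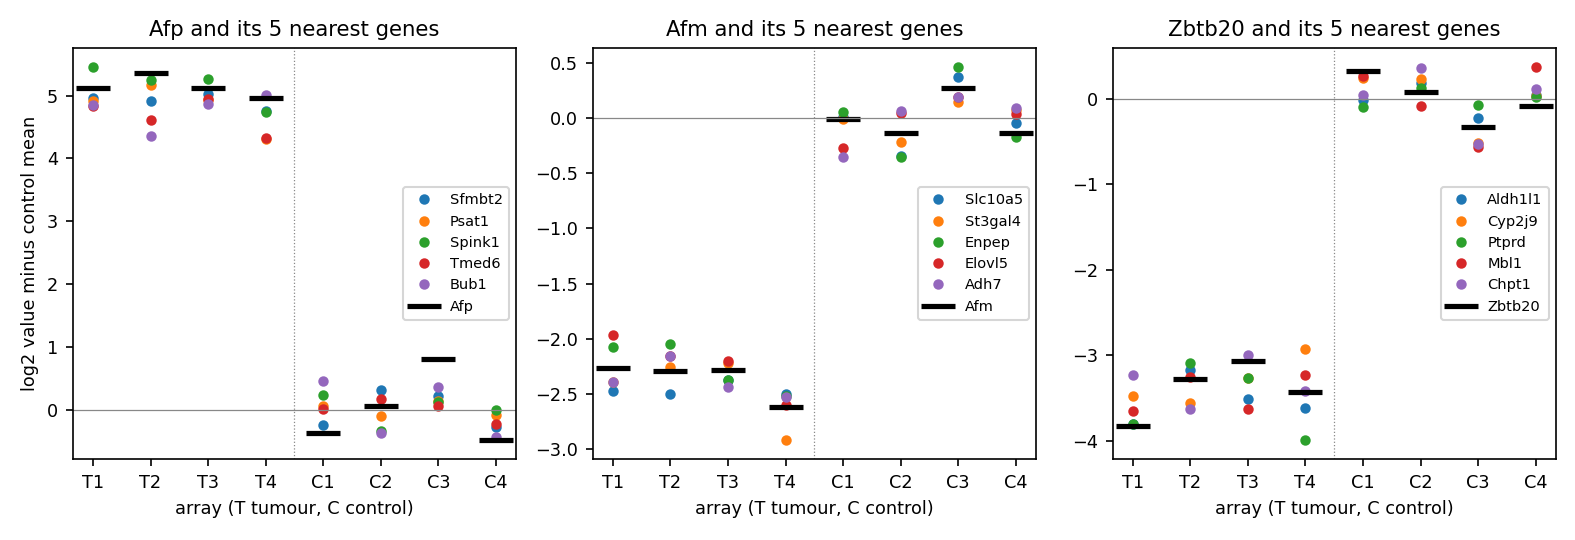
Log2 values relative to each gene's own control mean on tumours 1 to 4 (T) and controls 1 to 4 (C), for Afp, Afm and Zbtb20 (black bars) and the 5 genes with the smallest root mean square difference from each (coloured points). Afp in control liver 3 stands above its nearest genes there.

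The tissue carried hepatocyte markers in both groups, and they were lower in tumours for 9 of 9 genes, against 12.7% of all genes. Their summed level, after turning log2 values back to a linear scale, was 14102 to 20741 in tumours and 28855 to 33373 in controls. Asgr1, a subunit of the asialoglycoprotein receptor and picked after its value was seen, showed the largest change of these (-2.78, SE 0.26), and Ttr the smallest. Hnf4a passed narrowly (adjusted p = 0.0494 in limma), and its groups overlapped. The Ttr call was lost with a replicate block (adjusted p = 0.0593 in limma). Hnf4a, Ttr and Ahsg also belong to lists described above.

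For the counts of other cell types that follow, the shares over all genes were 16.2% higher and 12.7% lower. Of 9 endothelial markers 5 were lower and none higher, with summed levels of 1022 to 1305 in tumours and 1630 to 2494 in controls. Named after their values were seen, Stab2, Clec4g, Fcgr2b, Oit3 and Kdr were lower. Pecam1, Cdh5, Egfl7 and Lyve1 did not pass. Of 8 macrophage markers 2 were higher and 2 lower (1767 to 2999 in tumours and 2259 to 4302 in controls). Stellate cell and fibroblast markers were lower in 3 of 8 (1129 to 2587 in tumours and 2458 to 3583 in controls). This sum is weighted to Dcn, named after its values were seen as the brightest of the 8. Its log2 means were 9.51 in tumours and 10.97 in controls, and its groups overlapped. Among 6 bile duct markers 1 was higher and 1 lower (337 to 433 in tumours and 362 to 387 in controls), and Krt19, Cftr and Muc1 were among the dimmest 33.3% of genes in both groups. None of 6 T and NK cell, 5 erythroid or 5 neutrophil markers passed, and 1 of 4 B and plasma cell markers was lower. Control liver 1 stood apart in neutrophil markers, named after their values were seen. It read 7.62 for S100a8, 8.25 for S100a9 and 7.35 for Retnlg, against at most 5.72, 6.87 and 6.20 on any other array. Ly6g was also highest there and Camp was not. The part of these shifts in the changes of the albumin family genes and their regulators was not tested.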

How the data were processed

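Total RNA of 4 tumours and 4 control livers was hybridised to 1-colour Affymetrix arrays. Values are on the log2 scale and were made by the authors with RMA in R 3.0.2, per the submitters' processing notes. Settings, summarisation level and genome build are not given in the sources used here. Array medians were 6.33 to 6.44.

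Of 34760 probe sets, 21640 carried exactly 1 gene symbol in the platform annotation, 1321 carried several and were set aside, and 11799 carried none. Identifiers of 21553 matched a RefSeq gene table (GRCm38.p6), used for names and gene order. The probe set with the highest mean was kept per gene, giving 19937 genes. Groups were compared with limma 3.58.1 (lmFit, eBayes) in R 4.3.3, group as the only term, with Benjamini-Hochberg adjustment over all genes and a threshold of 0.05. Changes are tumour minus control. Depth does not apply to arrays: their number, 4 per group, limits the precision, and since the labels name no mice, p-values reflect sample-to-sample spread alone, which may be technical. The fit was tested on simulated data. Promoters came from RefSeq tables. Python 3.11.15 and matplotlib 3.10.9 were used for tables and plots.

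The genes and 7 lists were chosen with earlier results of these data known. Of the 78 list entries 70 were measured, 1 could not be separated from a gene on the same probe set and 7 were not analysed here. Named genes were all measured members, up to 3 rises and 3 falls that passed in each list and in the locus, and the 5 genes nearest to each member that changed at least 2-fold. Of 7 planned pairs of members, 3 needed Gc. Alternatives were quantile normalisation, median subtraction, leaving out the dimmest 33.3% of genes (mean below 6.01), limma's array weights, a replicate block, robust variances with an intensity trend, averaging probe sets, other probe sets of a member and leaving out each array.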

Additional observations from a re-analysis of the deposited data

Results flagged for a closer look

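Among 114 groups of 4 arrays, made of the tumours and the controls for each gene examined, 9 held an array far from the other 3 by Dixon's criterion at its 95% level. That is 7.89%, where chance gives about 1 in 20. Among members this was Afm in tumour 4 (8.28, against 8.60 to 8.63 in the other tumours). Tumour 4 was also the lowest tumour for Gsn (7.84, against 9.01 to 9.11) and Igf2bp3 (8.34, against 8.67 to 8.71). Control liver 3 was the lowest control for Mup3 (11.49, against 12.29 to 12.39), Mup21 (7.22, against 11.51 to 12.09), Cyp4a12a (4.76, against 11.19 to 11.83) and Cyp4a12b (4.05, against 9.86 to 10.54), and it is the array with high Xist. Mup21 in tumour 3 (3.46, against 4.33 to 4.36) and Orm1 in tumour 2 (7.39, against 6.38 to 6.49) complete the set.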

How the results depend on the processing

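The 5 members kept their direction and their call in each alternative tried, 15 for each gene and 16 for Zbtb20. Log2 changes over these ran from 4.98 to 5.41 for Afp, -0.62 to -0.43 for Alb, -2.44 to -2.27 for Afm, -3.51 to -2.95 for Zbtb20 and -0.69 to -0.48 for Zhx2, with the highest adjusted p at 0.0473 for Zhx2 in limma, without tumour 1. Genes passing numbered 4831 to 6558 over the alternatives, against 5757, and members of the lists 42 to 49, against 49. The labels do not say whether replicate numbers pair the samples. Deviations of arrays with the same number correlated at -0.32 to 0.05, against -0.22 to 0.31 for different numbers. So few arrays cannot settle whether samples were paired. With a replicate block the differences between members, 5.67 (Afp minus Alb), 7.51 (Afp minus Afm), 1.84 (Alb minus Afm) and 2.85 (Zhx2 minus Zbtb20), had an exact sign-flip permutation p of 0.125, the smallest that 4 pairs allow. The gaps between the groups of the single genes fixed this p as well. The block gave 5007 genes and lost no call of a member. Cyp4a12b changed by 0.76 over all arrays, by -0.78 without control liver 3 and by up to 1.38 without another array (control liver 2). Members of the plasma carrier protein list that were lower numbered 13 to 18, and lower factors that bind the Alb and Afp promoters or enhancers 10 to 13.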
